A study of Homo sapiens with 10 samples.

Results

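The first 5 Mb of chromosome 1 hold 435 regions with an RNA-DNA hybrid peak, of 177004 such regions on chromosomes 1 to 22 and X. Overlapping or adjoining peaks of 5 DRIP libraries were merged, and a merged region was kept when it started on chromosome 1 between bases 1 and 5000000 (hg38). The remainder of chromosome 1 holds 16729 regions. The stretch itself was selected on measured values, because the SCAN1#2 library has more peaks in it than the SCAN1#1 and WT libraries. Differences of SCAN1#2 from the other libraries in this stretch are therefore given as descriptions, with no test. The last regions inside the limit, which end at bases 4868586 and 4996577, each had a peak in SCAN1#2 and in WT replicate 2. The first region past it, from base 5011271 to 5011702, had a peak in SCAN1#2 only, and the next, from 5096005 to 5096263, in SCAN1#1 replicate 2 only.

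DRIP-seq maps R-loops, 3-stranded structures in which a nascent RNA stays paired with its template DNA and the other DNA strand is left single. The antibody S9.6, which binds RNA-DNA hybrids, pulls them from sonicated nucleic acids, and the recovered DNA is sequenced. R-loops form behind RNA polymerase, and G-rich transcripts, gene starts and gene ends are known places for them. Persistent R-loops and topoisomerase 1 trapped on DNA are both sources of DNA breaks in transcribed genes. TDP1 frees DNA ends from trapped topoisomerase 1. The substitution H493R in TDP1 causes SCAN1, a recessive ataxia with neuropathy, and the series asks about breaks that arise during transcription in cells with this change.

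All libraries came from U2OS, a human osteosarcoma line. The groups were SCAN1#2 (TDP1 H493R, 1 library, experiment 2), SCAN1#1 (TDP1 H493R, 2 libraries, experiments 1 and 2) and WT (2 libraries, experiments 1 and 2). The replicate number is the experiment, so replicate 2 of each group belongs to the same experiment. The S9.6 antibody came from 1 lot in experiment 1 and from a mix of other lots in experiment 2. The labels do not say whether the SCAN1 lines are single clones, how the change was introduced or whether replicates were grown separately, so p-values here reflect the spread between these libraries alone. The 5 input samples are not analysed here, so the DNA copy number of the stretch in each line was not tested. Fewer cells with a hybrid and less hybrid per cell cannot be told apart in these bulk samples. No depth of reads was given, so precision is unknown beyond the counts of peaks. The peak lists held 89932 peaks in SCAN1#2, 63456 and 110745 in SCAN1#1 replicates 1 and 2, and 82545 and 89445 in WT replicates 1 and 2. Of the mesenchymal markers, COL1A1, SPARC, VIM and RUNX2 carried peaks in all 5 libraries, and COL1A2 in SCAN1#2 alone, over 0.853% of the gene. HBB, CD3E, MYOD1 and ALB, genes of blood, muscle and liver, carried none in any library.

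The sequence of the stretch is shown by its promoters. Of its 83 coding genes, 67 matched a RefSeq promoter (GRCh38.p14, 300 bases around a transcription start). Where no listed start was the first base of the gene, the first listed was taken. For MIB2 and NADK, among others, that start lies inside the gene. The median GC content was 69.3% over these 67 promoters and 62.7% over 15811 RefSeq promoters. Runs of G are of interest because a G-rich non-template strand favours R-loops. GGGG or its complement CCCC was found in 66 of the 67 promoters (98.5%), against 93.7% of all promoters. Counted on either strand, the motif thus hardly separates promoters from each other. On the gene strand, which is the non-template strand, GGGG was found in 83.6% of the 67 and in 80.6% of all. CCCC on that strand, which means a G-rich template, was found in 91.0% of the 67 and in 79.7% of all. The following are the only 2 promoters that lay under peaks in all 5 libraries, and the 3 of highest fold among the 5 that lay under a SCAN1#2 peak and no other (the others are PLEKHN1 and SLC35E2B). For these 5, no other library had a peak over the promoter bases, but it could have one elsewhere in the same merged region. Each promoter is written 5′ to 3′ on the strand of its gene, and capitals mark runs of at least 4 G or 4 C.
MIB2, chr1:1615250-1615549, plus strand: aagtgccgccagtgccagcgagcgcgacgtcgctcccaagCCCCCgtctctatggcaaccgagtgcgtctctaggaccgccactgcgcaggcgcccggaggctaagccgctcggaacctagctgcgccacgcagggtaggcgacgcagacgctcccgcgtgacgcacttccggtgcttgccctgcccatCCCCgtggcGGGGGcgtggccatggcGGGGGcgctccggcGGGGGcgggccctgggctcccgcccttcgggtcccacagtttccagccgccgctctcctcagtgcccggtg
MRPL20, chr1:1407244-1407543, minus strand: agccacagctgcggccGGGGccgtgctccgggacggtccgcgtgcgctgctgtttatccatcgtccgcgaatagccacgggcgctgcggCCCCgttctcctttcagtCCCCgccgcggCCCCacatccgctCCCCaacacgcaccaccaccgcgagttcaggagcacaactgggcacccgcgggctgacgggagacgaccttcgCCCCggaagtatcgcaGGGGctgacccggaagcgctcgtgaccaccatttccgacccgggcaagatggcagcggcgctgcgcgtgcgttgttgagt
WRAP73, chr1:3650054-3650353, minus strand: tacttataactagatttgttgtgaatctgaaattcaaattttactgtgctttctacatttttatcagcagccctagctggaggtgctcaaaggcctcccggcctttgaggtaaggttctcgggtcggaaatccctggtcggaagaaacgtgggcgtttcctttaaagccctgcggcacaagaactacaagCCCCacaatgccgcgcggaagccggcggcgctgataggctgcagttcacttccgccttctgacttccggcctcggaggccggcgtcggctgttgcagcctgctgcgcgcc
NADK, chr1:1779982-1780281, minus strand: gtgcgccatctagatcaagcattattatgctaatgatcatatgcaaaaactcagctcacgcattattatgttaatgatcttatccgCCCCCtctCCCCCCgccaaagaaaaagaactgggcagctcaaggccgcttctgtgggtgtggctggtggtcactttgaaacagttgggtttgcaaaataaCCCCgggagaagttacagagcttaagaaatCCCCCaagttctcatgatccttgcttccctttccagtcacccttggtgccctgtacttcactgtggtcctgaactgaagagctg
C1orf159, chr1:1116040-1116339, minus strand: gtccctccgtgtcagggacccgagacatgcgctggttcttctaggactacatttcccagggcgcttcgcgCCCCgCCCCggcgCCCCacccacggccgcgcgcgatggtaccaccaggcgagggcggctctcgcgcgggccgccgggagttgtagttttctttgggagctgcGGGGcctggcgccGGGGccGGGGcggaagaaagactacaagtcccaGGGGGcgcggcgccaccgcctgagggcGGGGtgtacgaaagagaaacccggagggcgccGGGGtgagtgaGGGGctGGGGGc

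MIB2, a ubiquitin ligase acting on Notch ligands, has GGGG 6 times and CCCC 3 times on this strand, overlapping matches included, and 37 CpG. All 300 bases of its promoter lay under a peak in each library. The fold enrichment of that peak, the authors' value over the peak caller's background, was 14.4 in SCAN1#2, 11.0 and 12.2 in SCAN1#1 replicates 1 and 2, and 6.48 and 8.34 in WT replicates 1 and 2. Folds rest on each list's own background, so here and below they describe peaks within a list and are not compared between libraries. MRPL20 encodes a protein of the large mitochondrial ribosomal subunit. The fold of the peaks over its promoter was 13.9 in SCAN1#2, 8.26 and 4.57 in SCAN1#1 replicates 1 and 2, and 6.41 and 7.96 in WT replicates 1 and 2. The GC skew (G minus C over G plus C on the gene strand) was -0.064 for MIB2 and -0.087 for MRPL20. Both promoters thus held more C than G on that strand.

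Of the promoters under a SCAN1#2 peak alone, that of NADK, the kinase that makes NADP, has 48.0% GC, 6 CpG and CCCC 8 times but no GGGG, and its SCAN1#2 peak covered 198 bases at a fold of 6.41. C1orf159 has 72.0% GC and GGGG 10 times, and its peak covered 233 bases at a fold of 6.40. WRAP73, a protein of the spindle pole, has CCCC once, and its peak reached only 15 bases into the promoter, at a fold of 9.90. The merged region of the NADK peak also had peaks in SCAN1#1 replicates 1 and 2 and WT replicate 1. That of the PLEKHN1 peak also had peaks in WT replicate 1. The WRAP73 fold exceeded 9.89, the highest among peaks in regions of SCAN1#2 alone, so its region was shared too. The regions of the C1orf159 and SLC35E2B peaks had a peak in SCAN1#2 only. Promoters of the stretch lay under a SCAN1#2 peak in 13 cases, against 5 and 4 for SCAN1#1 replicates 1 and 2 and 5 and 4 for WT replicates 1 and 2. As shares of the 67, these were 19.4% for SCAN1#2, 7.46% and 5.97% for SCAN1#1, and 7.46% and 5.97% for WT. Over all 15811 promoters the shares were 20.9% for SCAN1#2, 19.4% and 22.7% for SCAN1#1 and 20.4% and 18.5% for WT. In SCAN1#2 the share in the stretch was close to that over all promoters, and in each of the other 4 lists it was below it. This difference was not tested.

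The stretch held 319 peaks in SCAN1#2, against 171 and 200 in SCAN1#1 replicates 1 and 2 and 225 and 168 in WT replicates 1 and 2. These values, with the number of peaks in each list, chose the stretch. The peaks covered 282 kb in SCAN1#2, 128 and 151 kb in SCAN1#1 replicates 1 and 2, and 157 and 127 kb in WT replicates 1 and 2. SCAN1#2 stood above every other library on both counts, and the other 4 overlapped between the lines.

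Because the lists differ in length, peaks were also expressed as a share of the library's list, with exact (Clopper-Pearson) 95% intervals that cover counting of peaks only. The intervals treat peaks as independent and are no test of SCAN1#2, since these values chose the stretch. The share was 0.355% (0.317 to 0.396%) in SCAN1#2. It was 0.269% (0.231 to 0.313%) in SCAN1#1 replicate 1 and 0.181% (0.156 to 0.207%) in SCAN1#1 replicate 2. It was 0.273% (0.238 to 0.311%) in WT replicate 1 and 0.188% (0.161 to 0.218%) in WT replicate 2. In the shared experiment, SCAN1#2 had 1.89 times the share of WT and 1.96 times that of SCAN1#1, or 0.92 and 0.97 on the log2 scale. SCAN1#1 over WT gave -0.02 on the log2 scale in experiment 1 and -0.06 in experiment 2. The experiments differed as well, since replicate 1 over replicate 2 gave 0.58 for SCAN1#1 and 0.54 for WT. Across experiments, the share in SCAN1#2 was 1.32 times that of SCAN1#1 replicate 1 and 1.30 times that of WT replicate 1, and in these ratios line, experiment and antibody lot cannot be told apart.

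Whether SCAN1#1, the other line with the same TDP1 change, differs from WT in this stretch was not part of the selection. The log2 share of peak bases, taken in lists of equal length, was -8.33 and -9.00 in SCAN1#1 replicates 1 and 2 and -8.32 and -8.95 in WT replicates 1 and 2. In a limma fit over 578 bins of 5 Mb, SCAN1#1 minus WT was -0.03 (SE 0.23, n = 2 each, Benjamini-Hochberg adjusted p = 0.998). With the experiment as a replicate block, the SE was 0.08 and the adjusted p 0.820. Over the genome the block raised the calls to 127 bins, 58 higher and 69 lower, against 1 lower bin without it, and the first 5 Mb of chromosome 1 were not called in either fit. The SE without the block includes the spread between the experiments and leaves room for smaller differences between the lines.

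The surplus of SCAN1#2 peaks ran through the stretch and ended near its limit. Per 10000 peaks of its list, SCAN1#2 was the highest library in 8 of the 10 bins of 0.5 Mb. From 0.5 to 2.5 Mb there were 244 peaks in SCAN1#2, 153 and 136 in SCAN1#1 replicates 1 and 2, and 189 and 121 in WT replicates 1 and 2. Here the share in SCAN1#2 was 2.21 times that of SCAN1#1 and 2.01 times that of WT in experiment 2. From 2.5 to 5 Mb there were 72 peaks in SCAN1#2, 18 and 61 in SCAN1#1, and 34 and 44 in WT, and the ratios were 1.45 to SCAN1#1 and 1.63 to WT. From 5 to 10 Mb, outside the stretch, there were 202 peaks in SCAN1#2, 145 and 274 in SCAN1#1, and 193 and 212 in WT. There the SCAN1#2 share was 0.908 times that of SCAN1#1 and 0.948 times that of WT. The 2 remaining bins were the first 0.5 Mb, with at most 3 peaks in any library, and the bin from 1.0 to 1.5 Mb. In that bin SCAN1#2 had 85 peaks and SCAN1#1 replicate 1 had 75, which were 9.45 and 11.8 per 10000.

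**Figure D1:**
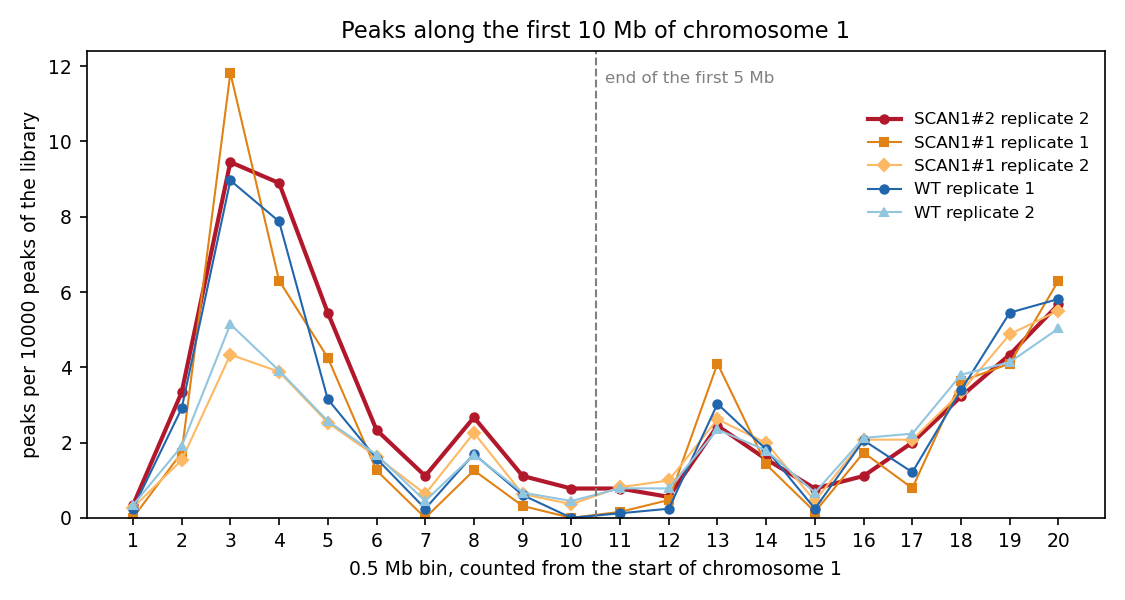
Peaks per 10000 peaks of each library in 0.5 Mb bins counted from the start of chromosome 1, with 1 line per library and a dashed line at the end of the first 5 Mb. SCAN1#2 lies above both other libraries of experiment 2 in bins 2 to 10 and in no set order with them after bin 10, while the replicate 1 libraries lie near or above it in bin 3.

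The ratios of the stretch were set beside those of other bins as a description, since the SCAN1#2 ratios chose it. The stretch ranked 42nd of 578 bins of 5 Mb by number of coding genes. Among the 20 bins with the most coding genes (119 to 188), the log2 ratio of SCAN1#2 over WT in experiment 2 had a median of -0.06 and ran from -0.19 to 0.34. The first 5 Mb of chromosome 1 had 0.92, the 6th highest of all 578 bins, and 0.97 for SCAN1#2 over SCAN1#1, the 4th highest. The ratio of replicate 1 over replicate 2 in the same 20 bins was above 0 in all 20, with medians of 0.70 for SCAN1#1 and 0.51 for WT, close to the 0.58 and 0.54 of the first 5 Mb of chromosome 1.

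**Figure D2:**
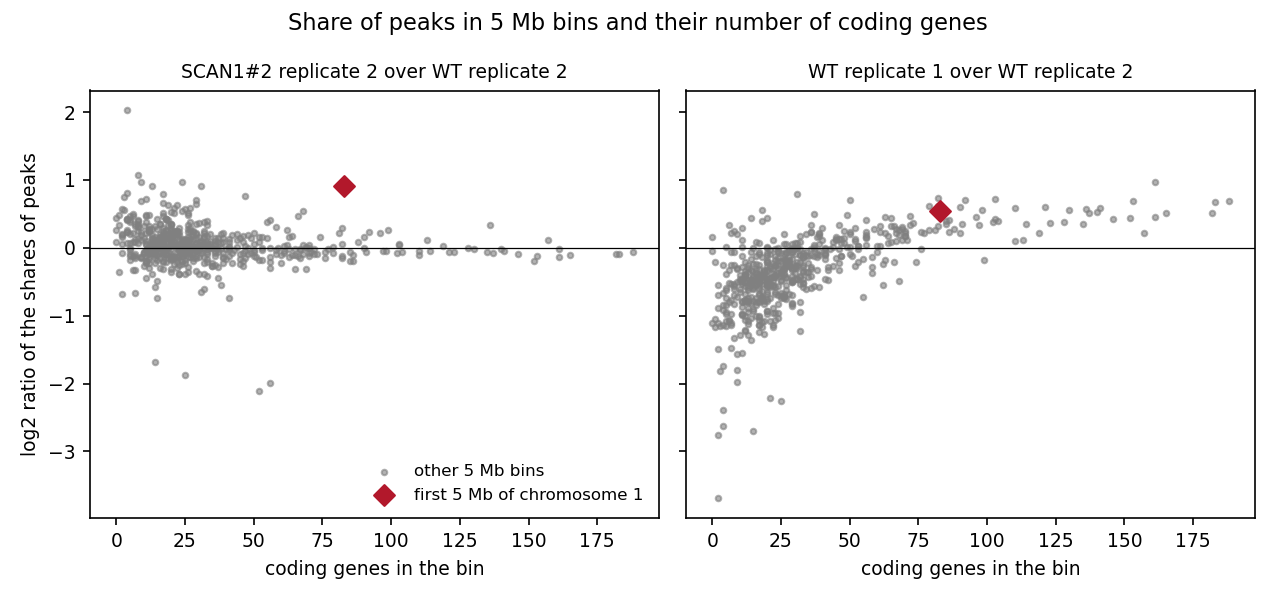
Log2 ratio of the share of peaks in 5 Mb bins against the number of coding genes in the bin, for SCAN1#2 over WT in experiment 2 (left) and WT replicate 1 over WT replicate 2 (right), 1 point per bin. The first 5 Mb of chromosome 1 (diamond, 83 coding genes) lie at 0.92 on the left, above all 20 bins with the most genes, and at 0.54 on the right, where those 20 bins had a median of 0.51.

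The 435 regions were shared between libraries about as broadly as regions elsewhere. A peak was present in all 5 libraries in 51 regions (11.7%), against 12.4% of all 177004 regions. Regions with a peak in SCAN1#2 alone numbered 100 (23.0%), against 8.09% of all regions, which is the difference that chose the stretch. Regions found in 1 SCAN1#1 library alone numbered 35 (8.05%) and 18 (4.14%) for replicates 1 and 2, against 5.43% and 13.3% of all. For WT replicates 1 and 2 they numbered 42 (9.66%) and 12 (2.76%), against 8.37% and 7.95% of all. SCAN1#2 had a peak in 309 of the 435 regions, SCAN1#1 in 142 and 170, and WT in 190 and 143. These were 71.0% for SCAN1#2, 32.6% and 39.1% for SCAN1#1 and 43.7% and 32.9% for WT. Over all regions they were 47.7% for SCAN1#2, 31.5% and 59.6% for SCAN1#1 and 42.4% and 47.8% for WT. In the 40 regions with a peak in 4 libraries, the missing library was SCAN1#2 in 0, SCAN1#1 replicates 1 and 2 in 20 and 7, and WT replicates 1 and 2 in 2 and 11. Over all 18472 such regions it was SCAN1#2 in 2624, SCAN1#1 in 9006 and 811, and WT in 3576 and 2455.

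Of the 309 SCAN1#2 regions, 176 also had a peak in SCAN1#1 or WT of the same experiment, and 133 did not. Of those 133, 33 had one in a library of experiment 1. The peaks that SCAN1#2 alone had were weak and narrow. Their median fold was 4.44, their median -log10 q 5.03 and their median width 359 bases. SCAN1#2 peaks in regions shared by all 5 libraries had a median fold of 9.15, a median -log10 q of 20.1 and a median width of 1544 bases. Within each of the other lists, too, peaks found in that library alone had a lower median fold than its other peaks in the stretch. These medians were 4.41 against 5.22 in SCAN1#1 replicate 1 and 4.54 against 5.26 in SCAN1#1 replicate 2. They were 4.27 against 5.15 in WT replicate 1 and 4.55 against 5.31 in WT replicate 2.

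The shared regions differed too. In the 51 regions with a peak in all 5 libraries, SCAN1#2 covered the most bases in 35 (68.6%), while over all such regions of the genome it did so in 16.4%. The median number of bases under peaks was 1769 in SCAN1#2, 976 and 1289 in SCAN1#1 replicates 1 and 2, and 977 and 1143 in WT replicates 1 and 2. The surplus in SCAN1#2 thus held both further narrow peaks and wider peaks at common sites.

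**Figure D3:**
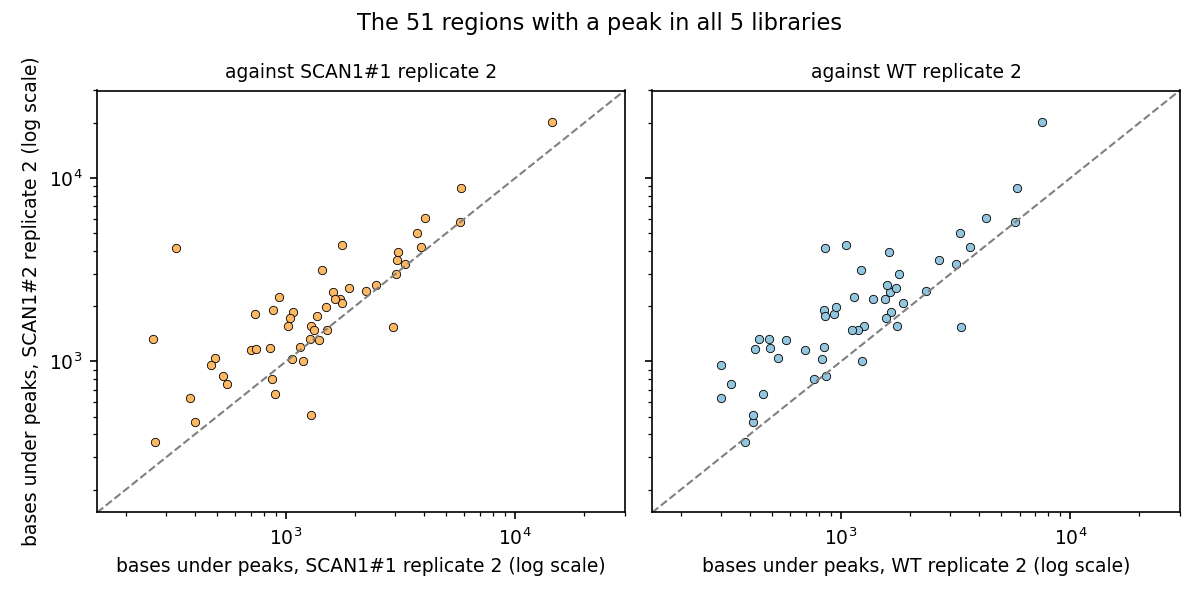
Bases under peaks in SCAN1#2 (vertical, log scale) against SCAN1#1 replicate 2 (left) and WT replicate 2 (right) of the same experiment (horizontal, log scale) for the 51 regions with a peak in all 5 libraries, 1 point per region, with the line of equality dashed. Most points lie above the line, and the point well below it near 3000 bases in both panels is the region in LINC02780.

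The widest region ran from base 1325247 to 1348719 (23473 bases) across CPTP, TAS1R3, MIR6808 and most of DVL1. Peaks covered 20173 of its bases in SCAN1#2, 21330 and 14389 in SCAN1#1 replicates 1 and 2, and 20094 and 7495 in WT replicates 1 and 2. SCAN1#2 stood above both other libraries of experiment 2 here and within the range of experiment 1. The next widest, bases 1019831 to 1028603, covers the first bases of AGRN. SCAN1#2 held 1 unbroken peak of 8773 bases there, against 3685 and 5810 bases in SCAN1#1 and 6471 and 5864 in WT. A pair of regions around MRPL20, bases 1399415 to 1405831 and 1406370 to 1411994, had 6061 and 5017 bases under peaks in SCAN1#2. They had 4119 and 3840 in SCAN1#1 replicate 1, 4039 and 3723 in SCAN1#1 replicate 2, 5452 and 3938 in WT replicate 1, and 4265 and 3291 in WT replicate 2. The region near the start of NOC2L, bases 954718 to 959157, had 4326 bases under peaks in SCAN1#2, 314 and 1749 in SCAN1#1 and 1085 and 1047 in WT.

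Within the stretch, the region of highest fold in each list lay at bases 788249 to 791664, within the long noncoding RNA gene LINC01409 and reaching the first bases of LOC124903817, where the fold was 36.4 in SCAN1#2, 19.5 and 49.4 in SCAN1#1 replicates 1 and 2, and 39.9 and 51.2 in WT replicates 1 and 2. The region in LINC02780, bases 3975921 to 3979348, ran against the pattern. Peaks covered 1537 of its bases in SCAN1#2, 2840 and 2932 in SCAN1#1 and 2507 and 3318 in WT, so SCAN1#2 was the lowest library. Its fold was 8.55 in SCAN1#2, 18.5 and 21.2 in SCAN1#1 and 15.8 and 28.8 in WT. An intergenic region at bases 819896 to 824120 had 4225 bases under peaks in SCAN1#2, 2667 and 3867 in SCAN1#1 and 2842 and 3667 in WT, with a fold of 23.4 in SCAN1#2.

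A region at bases 629090 to 634916 is made of nuclear copies of mitochondrial genes (MTND1P23 to MTCO3P12, with MIR12136), to which mitochondrial reads can align. It was covered almost whole in every library. Peaks covered 5788 of its 5827 bases in SCAN1#2, 5827 and 5749 in SCAN1#1 and 5812 and 5760 in WT. The fold was 6.56 in SCAN1#2, 6.25 and 6.46 in SCAN1#1 and 5.01 and 5.72 in WT. Without this region, chosen after its values were seen, the log2 ratio of SCAN1#2 over WT in experiment 2 was 0.92, as with it.

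The 6 regions of highest fold among those of SCAN1#2 alone had folds of 7.22 to 9.89. The highest was intergenic, at bases 3041627 to 3041984. The 3rd, at bases 4060144 to 4060455, was intergenic too. The others lay inside coding genes: GNB1 (folds of 8.30 and 7.37), SLC35E2B (7.82, a gene with a near-identical copy nearby, so uncertain) and PRKCZ (7.22). GNB1, a beta subunit of heterotrimeric G proteins, held 27 of the 435 regions. SCAN1#2 had a peak in 21 of them, SCAN1#1 in 10 and 9 and WT in 15 and 6, and 7 were in SCAN1#2 alone.

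Coverage of a gene was taken as the percent of its bases, with 1 kb added on either side, that lay under peaks in the lists as deposited. Of the 83 coding genes, 61 (73.5%) had a peak in at least 1 library and 34 (41.0%) in all 5. Over all 19817 coding genes, 81.7% had a peak and 54.0% had one in all 5. Coverage was highest in SCAN1#2 in 46 of the 61, in SCAN1#1 replicates 1 and 2 in 2 and 8, and in WT replicates 1 and 2 in 4 and 1. Over all 16195 coding genes with a peak, SCAN1#2 was highest in 16.5%. The mean coverage of the 83 genes was 14.9% in SCAN1#2, 8.38% and 7.83% in SCAN1#1 and 9.60% and 6.04% in WT. Over all 19817 coding genes it was 7.70% in SCAN1#2, 9.13% and 9.91% in SCAN1#1 and 9.73% and 8.06% in WT.

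The genes divided by position, at a limit chosen after their values were seen. Among the 61 genes that start in the first 2.5 Mb, 44 had a peak, and SCAN1#2 was highest in 37 of them. Among the 22 genes from 2.5 to 5 Mb, 17 had a peak. SCAN1#2 was highest in 9 and SCAN1#1 replicate 2 in 8 of those. The mean coverage of the 17 was 4.55% in SCAN1#2, 1.32% and 4.07% in SCAN1#1 and 1.88% and 1.91% in WT.

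**Figure D4:**
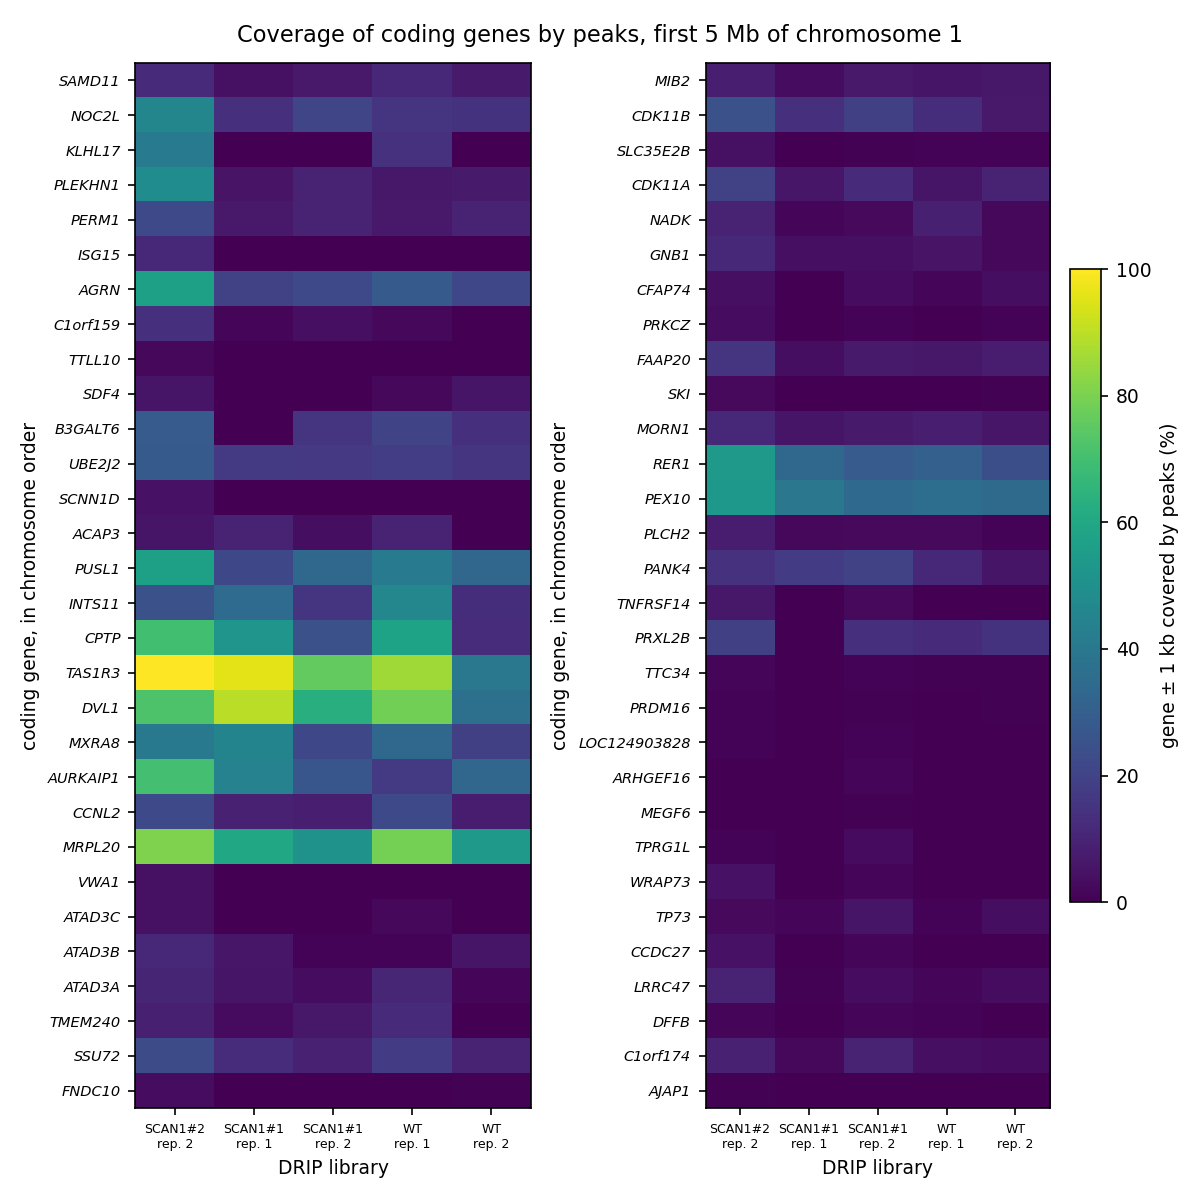
Percent of each coding gene with 1 kb on either side that lay under peaks, for 60 of the 61 genes with a peak, in chromosome order down the left and then the right panel, 1 column per library. The SCAN1#2 column is the brightest in most rows of the left panel, with TAS1R3 covered whole (100%), and the lower rows of the right panel are dark in all libraries.

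Genes of transcription and RNA processing were covered in every library: all 8 of a list had peaks in all 5, against 54.0% of all coding genes. Of the 8, 7 were highest in SCAN1#2. NOC2L, a nucleolar protein that inhibits histone acetyltransferases, was covered by 45.9% in SCAN1#2, 14.0% and 21.1% in SCAN1#1 and 15.1% and 14.5% in WT. SSU72, a phosphatase of the RNA polymerase II tail, was covered by 23.0% in SCAN1#2, 12.5% and 9.04% in SCAN1#1 and 17.6% and 10.1% in WT. In both genes SCAN1#2 lay above the other 4 libraries. PUSL1, a pseudouridine synthase-like protein, had 56.8% in SCAN1#2, 21.8% and 33.7% in SCAN1#1 and 41.1% and 32.9% in WT. INTS11, the endonuclease of the Integrator complex, was the exception. It had 24.9% in SCAN1#2, 35.0% and 15.3% in SCAN1#1 and 46.1% and 13.3% in WT, so the replicate 1 libraries were higher. CDK11A and CDK11B, kinases that act on splicing and transcription, are near-identical neighbours between which reads can be split. CDK11A had 19.3% in SCAN1#2, 6.04% and 12.3% in SCAN1#1 and 5.79% and 10.0% in WT.

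The 7 genes of a list of mitochondrial and ribosomal proteins, which also held NADK and PANK4, all had a peak, with SCAN1#2 highest in 5. AURKAIP1, a protein of the small mitochondrial ribosomal subunit, had 70.0% in SCAN1#2, 44.5% and 26.9% in SCAN1#1 and 17.02% and 32.9% in WT. MRPL20 had 80.8% in SCAN1#2, 59.5% and 51.3% in SCAN1#1 and 79.1% and 54.0% in WT. WT replicate 1 was thus close to SCAN1#2 for MRPL20 and lowest for AURKAIP1. ATAD3A, ATAD3B and ATAD3C, membrane ATPases of the mitochondrion, are near-identical copies and uncertain for that reason. They had 10.2%, 11.4% and 4.40% in SCAN1#2. PANK4, of the pantothenate kinase family, was higher in SCAN1#1, at 18.0% and 19.8%, than in SCAN1#2, at 14.3%, and had 11.0% and 5.65% in WT.

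Of 6 genes of the secretory pathway, ubiquitin transfer and the peroxisome, all had a peak and SCAN1#2 was highest in 5. CPTP, which carries ceramide-1-phosphate between membranes, had 69.8% in SCAN1#2, 52.0% and 24.9% in SCAN1#1 and 58.1% and 12.7% in WT. RER1, which returns proteins from the Golgi to the endoplasmic reticulum, had 53.8% in SCAN1#2, 33.7% and 28.8% in SCAN1#1 and 30.7% and 23.9% in WT. PEX10, a ubiquitin ligase of the peroxisome whose gene overlaps the end of RER1, had 53.2% in SCAN1#2, 39.5% and 34.3% in SCAN1#1 and 36.1% and 34.4% in WT. CPTP split by experiment among the other libraries, and RER1 and PEX10 did not split as widely. B3GALT6, which builds the sugar linker of proteoglycans, had 28.8% in SCAN1#2, 0% and 15.5% in SCAN1#1 and 20.4% and 13.9% in WT.

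Signalling genes were mixed. DVL1, a hub of Wnt signalling, was covered by 72.2% in SCAN1#2, 89.6% and 63.0% in SCAN1#1 and 78.7% and 36.8% in WT. TAS1R3, a subunit of sweet and umami taste receptors whose gene overlaps DVL1, was covered by 100% in SCAN1#2, 95.8% and 76.0% in SCAN1#1 and 85.8% and 40.2% in WT. DVL1, CPTP and TAS1R3 lie under 1 region, so their values are not independent. Of 8 genes of developmental signalling, 6 had a peak and SCAN1#2 was highest in 5. HES4 and HES5, targets of Notch, had none in any library. PRDM16, a transcription factor, and SKI, a repressor of TGF-beta signalling, were nearly uncovered, at 0.954% and 2.63% in SCAN1#2.

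Among matrix and surface genes, AGRN, the proteoglycan agrin, had 56.7% in SCAN1#2, 19.7% and 22.2% in SCAN1#1 and 28.2% and 21.3% in WT. MXRA8, an adhesion molecule, had 40.4% in SCAN1#2, 45.1% and 21.5% in SCAN1#1 and 33.9% and 19.1% in WT. For AGRN, SCAN1#2 thus lay above every other library. For MXRA8 it lay above both other libraries of experiment 2 and below SCAN1#1 replicate 1. MMP23B had no peak, and AJAP1, of adherens junctions, had one in SCAN1#2 alone, over 0.629%. The neighbours KLHL17, a kelch protein, and PLEKHN1 had, beside CPTP, the widest margins of SCAN1#2 over the higher of SCAN1#1 and WT in experiment 2. KLHL17 had 40.7% in SCAN1#2, 0% in both SCAN1#1 libraries and 14.1% and 0% in WT. PLEKHN1 had 48.7% in SCAN1#2, 5.31% and 9.97% in SCAN1#1 and 6.47% and 7.37% in WT.

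Of 4 immune genes, 2 had a peak, and of 8 genes restricted to other tissues, 4 had one. ISG15, a ubiquitin-like protein induced by interferon, had 11.2% in SCAN1#2 and 0% in the other 4 libraries. TNFRSF4 and TNFRSF18, TNF receptor superfamily members of T cells, had no peak in any library. TNFRSF14 had 6.43% in SCAN1#2, 0% and 2.68% in SCAN1#1 and 0% in both WT libraries. Among the genes of other tissues, TAS1R3, PLCH2 and CFAP74 had peaks in all 5 libraries and SCNN1D in SCAN1#2 alone, while GABRD, MMEL1, ACTRT2 and CALML6 had none. PLCH2, a phospholipase C, had 7.90% in SCAN1#2, 2.29% and 2.61% in SCAN1#1 and 2.70% and 1.07% in WT. SCAN1#2 did not give peaks to every gene of the stretch, since 22 of the 83 coding genes had none anywhere. Over all 19817 coding genes, 3622 had none. In all, 5 of the 83 genes had a peak in SCAN1#2 alone: ISG15, SCNN1D, TTLL10, VWA1 and AJAP1. Over all 19817 coding genes, 263 did. Genes of the stretch with a peak in 1 other library alone numbered 0 and 1 for SCAN1#1 replicates 1 and 2, and 0 for each WT library. Over all coding genes they numbered 62 and 391 for SCAN1#1 and 145 and 226 for WT. SCNN1D is a subunit of epithelial sodium channels.

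Genes of DNA repair and the p53 family lie mostly past 2.5 Mb, and SCAN1#2 was highest in 2 of the 5 listed. FAAP20, of the Fanconi anaemia core complex, had 15.3% in SCAN1#2, 3.67% and 7.41% in SCAN1#1 and 6.33% and 7.92% in WT. TP73, a member of the p53 family, had 2.39% in SCAN1#2, 1.35% and 5.64% in SCAN1#1 and 0.855% and 3.55% in WT. TP73 lay below both other libraries of experiment 2 in SCAN1#2, while FAAP20 lay above all 4 other libraries.

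SCAN1#1 was tested against WT over all coding genes with a coverage of 2% or more, averaged over all 5 lists at equal length, on the percent scale. limma called 0 of 8457 genes (0%) at an adjusted p under 0.05, and 355 (4.2%) had an unadjusted p under 0.05. In the stretch, 35 genes were tested, 0 were called and 0 had an unadjusted p under 0.05. The mean behind the filter included SCAN1#2, and 4 of the 35 (ISG15, ATAD3B, NADK and C1orf174) passed only through it, ISG15 with 0% in all 4 tested libraries. With the mean over the 4 tested libraries, a filter chosen after seeing the data, 31 genes were tested, 0 were called and 0 had an unadjusted p under 0.05. TAS1R3 had 95.8% and 63.3% in SCAN1#1 replicates 1 and 2 and 85.8% and 40.2% in WT replicates 1 and 2, a difference of 16.6 points (SE 20.3, limma adjusted p = 1). B3GALT6 had 0% in both SCAN1#1 libraries and 20.4% and 6.04% in WT, a difference of -13.2 points (SE 5.22, limma adjusted p = 1). The 0% of SCAN1#1 replicate 2 came from the cut to equal length. In the lists as deposited, SCAN1#1 replicate 2 had 15.5% of B3GALT6 and WT replicate 2 had 13.9%. With the experiment as a replicate block, 0 genes were called and 3 of the 35 (8.57%) had an unadjusted p under 0.05, against 619 of all 8457 (7.32%). The genes of the stretch therefore gave no call between SCAN1#1 and WT. The SEs given for TAS1R3 and B3GALT6 are from the fit without the block and include the spread between the experiments. SEs of this size leave room for differences like those of TAS1R3.

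Where peaks lay within the stretch was compared with the rest of the genome inside each library. Gene ends, taken as coding gene limits plus or minus 1 kb, held 17.9% of peak bases in SCAN1#2, 19.2% and 17.9% in SCAN1#1 and 17.7% and 16.9% in WT. The stretch minus the rest of the genome was 2.69 points in SCAN1#2, -0.458 and 4.18 in SCAN1#1 and 0.516 and 3.75 in WT. The mean was 2.14 points ± 2.03 (SD, n = 5), higher in 4 of 5 libraries (exact two-sided sign-flip permutation test, p = 0.125, where 0.0625 is the smallest possible). Gene ends make up 5.86% of the stretch and 2.37% of the rest. Relative to that, gene ends held 3.05 times their share of sequence in SCAN1#2, 3.28 and 3.05 in SCAN1#1 and 3.03 and 2.89 in WT. In the rest of the genome the factor was 6.40 in SCAN1#2, 8.30 and 5.77 in SCAN1#1 and 7.26 and 5.54 in WT. The factor was lower in the stretch in 5 of 5 libraries.

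Median peak width in the stretch was above that of the rest of the genome in each library. It was 542 bases in SCAN1#2, 440 and 449.5 in SCAN1#1 and 443 and 490 in WT. In the rest of the genome it was 396 in SCAN1#2, 386 and 399 in SCAN1#1 and 371 and 430 in WT. The mean difference was 76.5 bases ± 39.7 (SD, n = 5), wider in 5 of 5 (exact permutation test, p = 0.0625, the smallest possible), and 59.1 bases without SCAN1#2. The median fold differed by -0.271 ± 0.345 (SD, n = 5, exact permutation test, p = 0.25) and was higher in the stretch in 1 of 5 libraries.

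Strand, known for 67 of the 83 genes, separates gene starts from gene ends. Within 1 kb of a transcription end lay 9.06% of peak bases in SCAN1#2, 11.1% and 9.84% in SCAN1#1 and 10.5% and 10.2% in WT. Within 1 kb of a start lay 7.92% in SCAN1#2, 7.34% and 7.26% in SCAN1#1 and 6.21% and 5.55% in WT. In the stretch, ends thus exceeded starts in 5 of 5 libraries. In the rest of the genome starts exceeded ends in 5 of 5, by 4.70 points in SCAN1#2, 2.78 and 2.89 in SCAN1#1 and 2.28 and 2.87 in WT. Chromosome 8 was not used in this comparison.

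**Figure D5:**
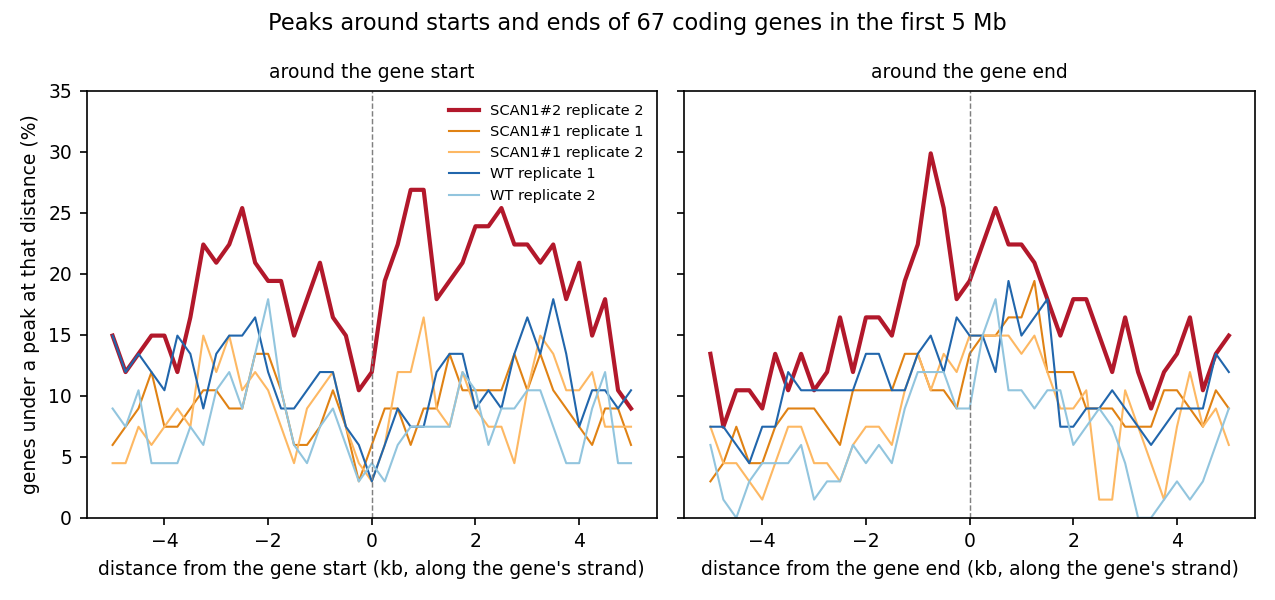
Percent of the 67 coding genes of known strand that lay under a peak at each distance (kb, along the gene's strand) from the gene start (left) and the gene end (right), 1 line per library. All libraries dip near the start, and SCAN1#2 lies above the others over most distances, with its highest value of 29.9% at 750 bases before the gene end.

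Among noncoding genes the counts were smaller. Of 82 long noncoding RNA genes, 33 had a peak: 26 in SCAN1#2, 9 and 20 in SCAN1#1 and 17 and 17 in WT. MRPL20-AS1, which overlaps the end of MRPL20, was covered by 100% in SCAN1#2, 79.1% and 100% in SCAN1#1 and 99.5% and 89.3% in WT. LINC00115 had 100% in SCAN1#2, 0% and 24.9% in SCAN1#1 and 0% and 31.8% in WT. Of 12 miRNA genes, 3 had a peak. MIR6727 was covered by 100% in SCAN1#2, 33.8% and 0% in SCAN1#1 and 100% and 10.8% in WT. S9.6 peaks were read without strand, so a gene and its antisense partner cannot be told apart.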

How the data were processed

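Peak lists of 5 DRIP libraries were analysed (SCAN1#2 1, SCAN1#1 2, WT 2). The submitters' processing notes name MACS3 3.0.0a6, BWA 0.7.17-r1188, SAMtools 1.9 and deepTools 3.5.1, besides FastQC 0.11.5, and the build hg38, with no roles. How peaks were called, and against which control, is not given in the sources. Per the layout of the deposited files, each peak has a score, a fold enrichment (a ratio over the caller's background), a -log10 p and a -log10 q, and the authors deposited 1 list per library.

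Overlapping or adjoining peaks were merged. Genes came from RefSeq (GRCh38.p14), without 679 rows whose coordinates lay on scaffolds, which left 19817 coding genes. For SCAN1#1 against WT, lists were reduced to the 63456 strongest peaks and fitted with limma 3.58.1 (trend, Benjamini-Hochberg, adjusted p under 0.05) in R 4.3.3: log2 of the share of peak bases in 5 Mb bins (500 bases added, at least 10 peaks on average), and percent coverage of genes averaging 2% or more across all 5 libraries. The fits were tested on simulated data with less noise than the median spread of the real values and no difference between experiments. That test does not show the power of the fits in these data. Window against rest used exact sign-flip permutation tests. Python 3.11.15, pandas 2.3.3 and scipy 1.17.1 were used.

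The members, gene lists and tests were chosen with earlier results of these data known. Named genes were the 12 of highest mean coverage, the 12 with the largest excess and up to 6 with the largest deficit of SCAN1#2 in experiment 2, up to 6 per direction between SCAN1#1 and WT, and members of 8 lists; 1 gene that the rule names is not reported here. Regions named were the 6 widest, the 6 of highest fold and the 6 of highest fold in SCAN1#2 alone. Replicate numbers are experiments and pair the samples by the labels; deviations from the group means correlated by 0.574.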

Additional observations from a re-analysis of the deposited data

Results flagged for a closer look

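The share of peaks in the first 5 Mb of chromosome 1 moved apart between the lines under the same contrast with WT. SCAN1#2 over WT of experiment 2 was 0.92 on the log2 scale, while SCAN1#1 over WT was -0.02 in experiment 1 and -0.06 in experiment 2. The difference between the lines was not tested, since SCAN1#2 has 1 library and the stretch was chosen for this difference.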

How the results depend on the processing

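Lists of equal length, a -log10 q of at least 5, and peak bases in place of peaks kept the direction of the SCAN1#2 ratios. Over WT of experiment 2 the log2 ratio was 1.28 with equal lists, 1.16 at the stricter q and 1.26 in peak bases. Over SCAN1#1 it was 1.56 with equal lists and 1.28 in peak bases. In peak bases without the mitochondrial pseudogenes, an alternative chosen after seeing the data, these were 1.30 and 1.30. Regions shared by all 5 libraries fell in number to 30 with equal lists and 28 at the stricter q. Regions of SCAN1#2 alone then numbered 75 and 87. Of the 100 peaks that SCAN1#2 alone had in the full lists, 43 and 51 were kept. These sets thus include regions that were shared in the full lists. With equal lists, SCAN1#2 had the highest coverage in 51 of 60 genes with a peak.

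SCAN1#1 over WT ran from -0.37 to 0.30 as libraries were left out. It turned to 0.30 without SCAN1#1 replicate 2 and to 0.28 without WT replicate 1, fits in which the lone library is assumed to vary like the others and the groups are unequal in experiment. With the replicate block, which pairs libraries by experiment, it stayed at -0.03 (adjusted p = 0.820). Called genes numbered 0 in every fit run, with unadjusted p under 0.05 in 324 to 619 genes.

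The share at gene ends turned to -0.11 points with ends of 500 bases and was 6.43 points with ends of 2000 bases. It was 0.418 points with equal lists (exact permutation p = 0.875), 0.857 against the rest of chromosome 1 and 1.15 at the stricter q. The width difference was 177.9 bases with equal lists and 146.2 at the stricter q. The share ran from 1.62 to 2.78 points, the width difference from 59.1 to 83.0 bases and the fold difference from -0.375 to -0.159 as libraries were left out. The fold difference turned to 0.0745 with equal lists. The causes were not tested. No read depth or input signal was used, so differences in depth and in the number of cells cannot be told apart from hybrid levels. The SCAN1#2 line rests on 1 library, and 5 libraries cannot give an exact p under 0.0625.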
